A study of Homo sapiens with 8 samples.

Results

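The 10 genes described here encode the enzymes that make and use succinyl-CoA and succinate in the tricarboxylic acid (TCA) cycle: OGDH, DLST and DLD of the 2-oxoglutarate dehydrogenase complex, SUCLG1, SUCLG2 and SUCLA2 of succinyl-CoA synthetase, and SDHA, SDHB, SDHC and SDHD of succinate dehydrogenase. They were chosen by name, not by any measured value, from 20135 protein-coding genes of the annotation, though with earlier results of these data known. For each gene, peaks were collected within 2 kb of the transcription start site (TSS), in the gene body and within 50 kb on either side. The data are 8 peak lists from CUT&Tag, in which an antibody guides a transposase to chromatin so that sequenced fragments mark where the antigen lies. There were 4 libraries for succinylation of histone H3 at lysine 23 (H3K23su) and 4 for H3K27ac, an acetylation mark of active promoters and enhancers. All libraries came from the established human colorectal cancer cell line HCT15. For each mark, 2 libraries were from the parental line, HCT15-Pa, labelled as treated with the solvent DMSO, and 2 were from HCT15-FR, a single derived line that resists 5-fluorouracil (5-FU) and is labelled with 5-FU at 20 μg/ml. The study's methods give drug-free medium for the parental cells and name no solvent for them. By the same methods the resistant cells spent a period in medium without drug before experiments, which the labels do not mention. Drug selection, drug treatment and solvent cannot be told apart between the lines. The labels do not say whether replicates were separate cultures, so the spread between replicates may be technical.

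The 2-oxoglutarate dehydrogenase complex forms succinyl-CoA from 2-oxoglutarate. Succinyl-CoA synthetase turns it into succinate while making GTP or ATP, and succinate dehydrogenase, complex II of the respiratory chain, oxidizes succinate to fumarate. Succinyl-CoA is also the donor of the succinyl group in lysine succinylation, the class of modification to which H3K23su belongs, and the 2-oxoglutarate dehydrogenase complex has been described in the nucleus next to histone acetyltransferases. These are facts of background and not results of these libraries.

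Each list holds 65364 to 76676 peaks with a score, the −log10 of the MACS2 P value, and no read counts, so the depth behind a peak is unknown from the lists and an absent peak means only that none passed the threshold of that list. The HCT15-FR lists covered more of the genome than the HCT15-Pa lists, with 39.4 and 40.0 Mb against 33.0 and 33.5 Mb for H3K23su and 46.3 and 46.6 Mb against 38.8 and 39.5 Mb for H3K27ac. That difference moves with every comparison of the lines below, and its part in them was not tested beyond the centred values given beside them. Of 10 colon epithelial marker genes, 8 had a TSS peak of H3K23su and 9 of H3K27ac in all 4 libraries. The intestinal regulator CDX1 had a TSS peak of either mark in HCT15-FR libraries only, and CDX2, another intestinal regulator, had H3K23su in 1 HCT15-FR library. Of 6 annotated markers of blood, stromal and liver cells, none had H3K23su in all 4 libraries, and the collagen gene COL1A1 was the 1 with H3K27ac in all 4.

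Start regions of the members are shown because the peaks reported at a TSS lie over them or next to them, and because 5 of the 10 share the region with a gene on the opposite strand. The sequences are from GRCh37 (hg19), on the strand of the member, and run up to the first annotated base of a 5′ untranslated region, with capitals for exact matches, on either strand, to the letters of 5 motifs: NRF1 (GCGCANGCG), ETS/GABPA (CCGGAAG), the GC box (GGGCGG), CRE (TGACGTCA) and AP-1 (TGANTCA). DLD is at chr7:107531409-107531608 (plus strand), OGDH at chr7:44645971-44646170 (plus), SUCLG2 at chr3:67705037-67705236 (minus), SUCLA2 at chr13:48575442-48575641 (minus) and SDHA at chr5:218269-218412 (plus).
DLD: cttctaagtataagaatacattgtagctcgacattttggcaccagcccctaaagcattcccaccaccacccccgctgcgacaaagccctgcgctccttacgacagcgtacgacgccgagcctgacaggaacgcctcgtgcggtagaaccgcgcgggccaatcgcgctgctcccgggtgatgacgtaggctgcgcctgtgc
OGDH: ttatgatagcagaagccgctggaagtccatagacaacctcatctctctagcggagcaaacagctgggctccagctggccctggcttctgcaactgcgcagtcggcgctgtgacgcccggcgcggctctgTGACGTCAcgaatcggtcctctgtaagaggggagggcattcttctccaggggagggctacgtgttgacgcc
SUCLG2: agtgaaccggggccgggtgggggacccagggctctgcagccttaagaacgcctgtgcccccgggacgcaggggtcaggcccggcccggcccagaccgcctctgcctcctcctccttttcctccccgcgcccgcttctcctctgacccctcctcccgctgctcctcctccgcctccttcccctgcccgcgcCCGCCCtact
SUCLA2: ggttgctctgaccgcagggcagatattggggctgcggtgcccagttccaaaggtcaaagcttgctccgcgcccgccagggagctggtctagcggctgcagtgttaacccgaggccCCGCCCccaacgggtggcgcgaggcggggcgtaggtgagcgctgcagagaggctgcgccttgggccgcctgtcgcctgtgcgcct
SDHA: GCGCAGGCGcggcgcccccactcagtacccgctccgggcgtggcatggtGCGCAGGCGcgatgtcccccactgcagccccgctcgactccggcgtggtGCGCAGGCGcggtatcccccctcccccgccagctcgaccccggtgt
The SDHA stretch holds 3 matches to the NRF1 letters, the OGDH stretch 1 match to the CRE letters, and the SUCLG2 and SUCLA2 stretches 1 match each to the GC box, while the DLD stretch holds none of the 5.

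Over the window from 250 bases upstream to 50 bases downstream of the TSS, the members differed in which letters they held. NRF1 letters were in SUCLA2, SDHA and SDHD, against 10.9% of the 20135 protein-coding promoters. The ETS/GABPA letters were in DLST, SDHB and SDHD (14% of promoters), the GC box in 6 members (61%), the CRE in OGDH and SDHB (2.68%), and AP-1 in none (5.43%). DLD and SUCLG1 held none of the 5. The G and C content of these windows ran from 56.3% in SUCLG1 to 74.7% in SDHA. A match describes the letters and says nothing of whether a factor binds.

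All 10 members carried H3K23su and H3K27ac at the TSS in every library, with a single peak each time, where 54.7% of all protein-coding genes had an H3K23su peak in all 4 libraries and 59% an H3K27ac peak. All 40 peaks of each mark crossed the start site itself. The H3K23su peaks covered 695 to 2002 bp of the window (median 1123 bp) and those of H3K27ac 825 to 1825 bp (median 1176 bp). Ranked by score within its own list, an H3K23su peak of a member stood between percentile 74.5 and 99.9, and an H3K27ac peak between 81.3 and 99.9. The median over members of the mean percentile was 96.0 for H3K23su and 95.8 for H3K27ac, beside 85.7 and 87.6 over all genes with a peak in all 4 libraries, and 9 of 10 members lay above that median in each mark. These peaks ranked high by score but were not wide: the median length covered was 1106 and 1145 bp for the members against 1120 and 1189 bp for all such genes.

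**Figure D1:**
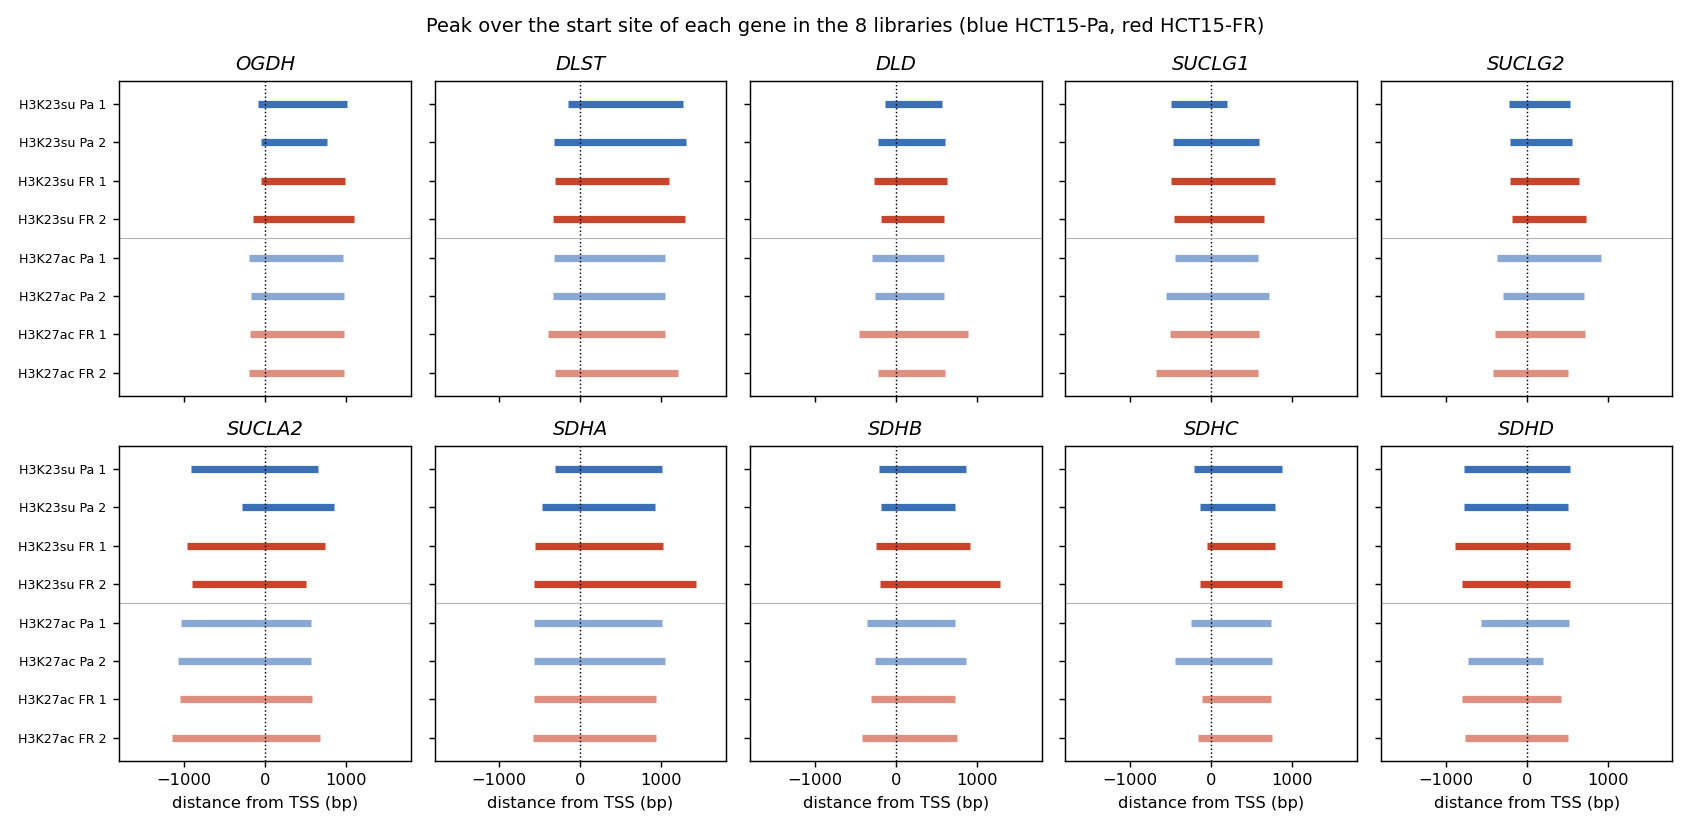
Extent of the TSS peak of each member in the 8 libraries, as distance from the TSS in bp along the direction of transcription, with 1 line per library (blue HCT15-Pa, red HCT15-FR; upper 4 H3K23su, lower 4 H3K27ac). Every peak crosses 0, the peaks of OGDH lie almost wholly downstream, and those of SUCLA2 and SDHD reach far upstream.

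The place of the peak around the start site differed from gene to gene. At OGDH, the dehydrogenase subunit of its complex, H3K23su began 50 to 141 bases upstream and ended 766 to 1096 bases downstream. At SUCLA2, the subunit of the ATP-forming synthetase, H3K27ac began 1041 to 1145 bases upstream and ended 570 to 679 bases downstream. At SDHD, a membrane anchor of succinate dehydrogenase, H3K23su began 777 to 885 bases upstream. Opposite-strand starts lay 116 bases from SUCLA2 (the noncoding SUCLA2-AS1), 117 bases from SDHD (TIMM8B, a mitochondrial import chaperone), 146 bases from SUCLG2 (SUCLG2-DT), 167 bases from SDHA (CCDC127) and 292 bases from SUCLG1 (the noncoding ENSG00000289076). A peak over such a pair cannot be assigned to either gene. This arrangement held for 5 of 10 members, beside 28.2% of protein-coding genes with an opposite-strand start within 2 kb. SDHA has a further noncoding opposite-strand start 1041 bases away (ENSG00000260774), and SDHA and SDHD each share their start region with a longer same-strand protein-coding record (ENSG00000286001 and ENSG00000255292).

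DLD, the dihydrolipoamide dehydrogenase that also serves the pyruvate and branched-chain dehydrogenase complexes, had the highest score of the 10 members in all 8 libraries. Its H3K23su score was 15.6 and 13.8 in HCT15-Pa and 17.2 and 17.9 in HCT15-FR, and its H3K27ac score was 28.6 and 29.7 against 23.8 and 35.0. The HCT15-FR libraries were the higher pair for H3K23su, and for H3K27ac they lay on either side of the HCT15-Pa pair. The peak itself was among the shortest, at 709 to 895 bp for H3K23su. The other members of the complex stood lower. OGDH had H3K23su scores of 5.25, 5.64, 7.30 and 5.87 (HCT15-Pa first, then HCT15-FR), the lowest or next to lowest of the 10 in each library, but H3K27ac scores of 14.3, 17.5, 15.5 and 16.4. DLST, which carries the succinyl-transferring core, was last of the 10 for H3K27ac in all 4 libraries, with scores of 9.03, 7.75, 10.9 and 8.30, and had 6.13, 6.59, 7.91 and 8.42 for H3K23su.

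Among the synthetase genes, SUCLG1 encodes the subunit common to both forms, SUCLG2 the GTP-specific partner and SUCLA2 the ATP-specific partner. SUCLG1 was low in H3K23su, with scores of 6.06 and 5.76 in HCT15-Pa and 7.03 and 7.97 in HCT15-FR. SUCLG2 scored 11.2 and 9.84 against 12.5 and 13.7, and in the order of H3K23su scores it ran from the 2nd to the 4th place of the 10. SUCLA2 scored 10.1 and 11.9 against 8.76 and 13.1, so its HCT15-FR libraries stood apart from each other by more than the HCT15-Pa libraries did and enclosed them. For H3K27ac, SUCLA2 hardly varied (16.5, 17.1, 17.5 and 16.8), while SUCLG1 had 11.5 and 9.93 in HCT15-Pa against 17.9 and 16.4 in HCT15-FR. SUCLG2 had 12.6 and 14.8 against 17.8 and 17.2.

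In succinate dehydrogenase, SDHA is the flavoprotein that binds succinate, SDHB the iron-sulfur subunit, and SDHC and SDHD the membrane anchors. SDHB had H3K23su scores of 7.01 and 6.39 in HCT15-Pa and 11.1 and 10.2 in HCT15-FR. SDHD had 8.79 and 7.70 against 12 and 14.7. SDHA had 10.5 and 10.4 against 12.3 and 11.1. At these 3 subunits every HCT15-FR score was above every HCT15-Pa score, an order found at 8 members and at 54.9% of all genes tested. SDHC had 7.39 and 7.64 against 9.45 and 7.12, with overlap. For H3K27ac the scores were 11.2, 11.1, 14.4 and 12.5 at SDHA, 11.6, 8.65, 14.6 and 13.5 at SDHB, 14.0, 17.2, 17.7 and 16.7 at SDHC, and 10.2, 10.4, 12.8 and 13.7 at SDHD. SDHA has pseudogene copies elsewhere in the genome, of which SDHAP1, SDHAP2 and SDHAP4 had TSS peaks of both marks in all 4 libraries. The authors kept uniquely mapped reads, so how many SDHA reads were lost to such copies is not known.

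**Figure D2:**
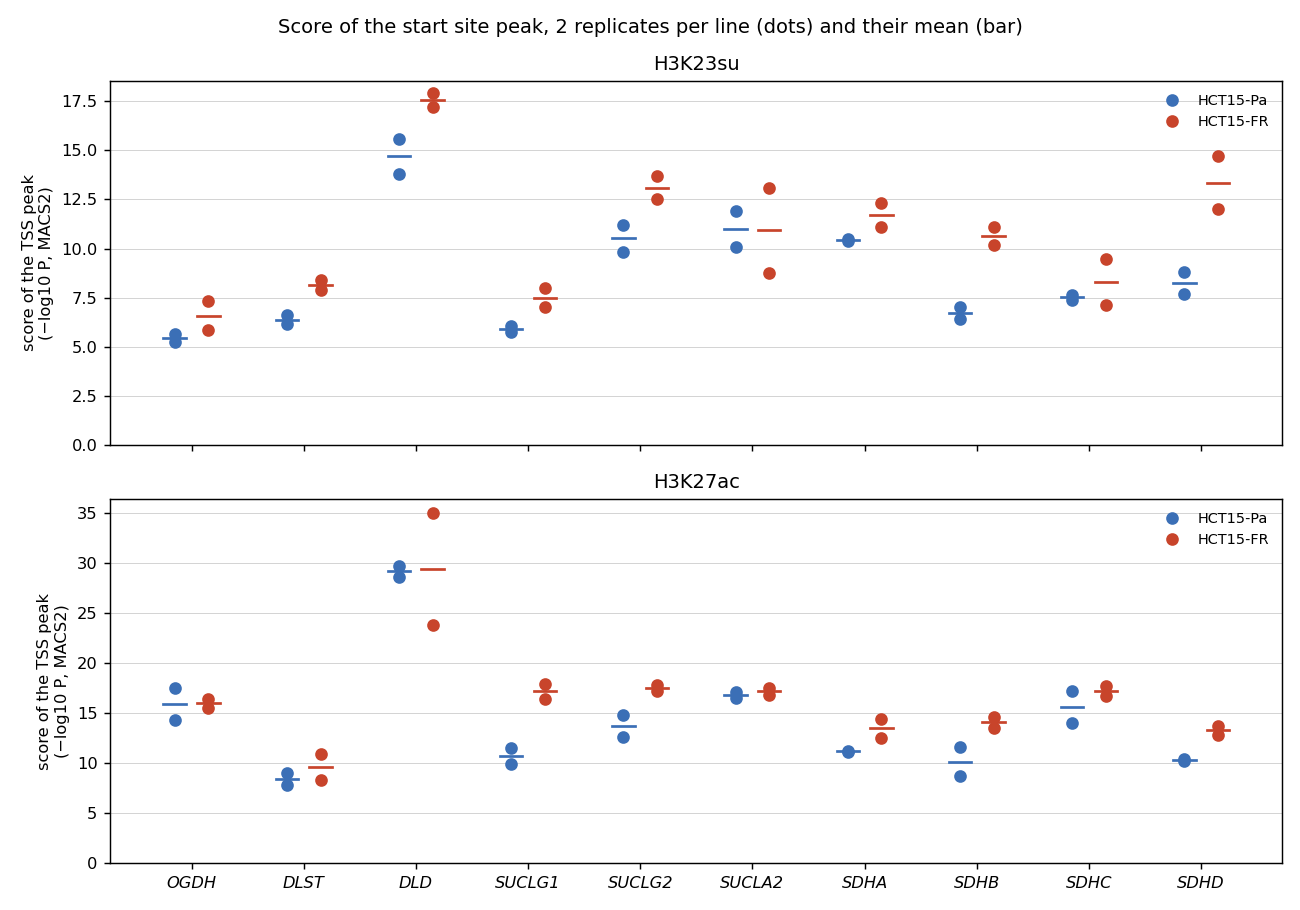
Score of the TSS peak (−log10 P of MACS2, linear axis from 0) for each member, with dots for the 2 replicates of HCT15-Pa (blue) and HCT15-FR (red) and bars for their means, H3K23su above and H3K27ac below. DLD is the highest in both panels. The HCT15-FR pairs lie above the HCT15-Pa pairs at 8 members for H3K23su, SDHB and SDHD among them, and at 5 for H3K27ac, SUCLG1 among them.

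The first question for the lines was whether the TSS peaks of the members differed between HCT15-FR and HCT15-Pa. As deposited, the scores were mostly higher in HCT15-FR. Both HCT15-FR libraries stood above both HCT15-Pa libraries at 8 of 10 members for H3K23su, with no member the other way, where 54.9% of 11009 genes had the first order and 4.91% the second. For H3K27ac the counts were 5 and 0, beside 50.3% and 8.5% of 11886 genes. For the length covered, 5 members had longer H3K23su peaks in both HCT15-FR libraries and none had shorter ones, beside 45.9% and 6.32% of genes. For H3K27ac length, 3 were longer (OGDH, DLST and SDHD) and 2 shorter (SDHA and SDHC), beside 35% and 10.9%. For length and for H3K27ac score the members' shares were near those of all genes, and the 8 of 10 for H3K23su score has no test of its own here. With 2 libraries against 2, the smallest p that an exact permutation test can give is 0.33, so no single gene could pass it.

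Each library was therefore centred on its median over genes, and limma was fitted across all genes with a TSS peak in all 4 libraries. Before centring, the median gene was higher in HCT15-FR by 0.26 (length) and 0.25 (score) on the log2 scale for H3K23su and by 0.10 and 0.21 for H3K27ac. After centring, no member was called in any of the 4 fits, at an adjusted p threshold of 0.05. The background was 0% of genes called for H3K23su length, 0.454% for H3K23su score, 0% for H3K27ac length and 3.79% for H3K27ac score. Without adjustment, p was below 0.05 for 0, 2, 0 and 1 members in that order. Over all genes it was below 0.05 for 1417 (length) and 1378 (score) of 11009 for H3K23su. For H3K27ac it was below 0.05 for 1351 (length) and 2440 (score) of 11886. The counts of members were not tested against these.

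The 3 members below that unadjusted threshold were SDHD, SDHB and SUCLG1, and all were higher in HCT15-FR. SDHD had an H3K23su score higher by 0.44 (SE 0.17, limma adjusted p = 0.268) and SDHB by 0.42 (SE 0.17, limma adjusted p = 0.295), on the centred log2 scale. SUCLG1 had an H3K27ac score higher by 0.48 (SE 0.15, limma adjusted p = 0.0909). These values lay near or past the top of the range that holds 90% of all genes, −0.43 to 0.38 for H3K23su and −0.50 to 0.50 for H3K27ac. Left uncentred, SDHB, SDHD and SUCLG1 passed the threshold (limma adjusted p = 0.0276, 0.0232 and 0.0102). In those fits 6.82% of all genes were called for H3K23su score, 730 higher and 21 lower in HCT15-FR in place of 22 and 28, and 14.3% for H3K27ac score, 1617 higher and 82 lower in place of 309 and 141. With the replicate block SUCLG1 passed as well (limma adjusted p = 0.0417), where 8.4% of all genes were called. The median total degrees of freedom in that fit were 11886, against 14.55 without the block. The error of SUCLG1 there thus came from the trend over all genes and hardly from its own libraries. DLD was called for H3K27ac score in a single fit, without HCT15-FR replicate 2, at −0.51 (limma adjusted p = 0.033, with 4.91% of all genes called). That fit holds 1 HCT15-FR library, which is assumed to vary like the HCT15-Pa pair, and without the other HCT15-FR library DLD was at 0.07 (limma adjusted p = 0.842).

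The remaining members gave small differences with their errors. The medians over the 10 members were −0.04 (H3K23su length), 0.04 (H3K23su score), −0.06 (H3K27ac length) and 0.02 (H3K27ac score), beside −0.05, −0.01, −0.01 and 0 over all genes. The lowest values were those of SDHC for length, −0.37 (SE 0.21) for H3K23su and −0.39 (SE 0.17) for H3K27ac, neither of which passed (limma adjusted p = 0.492 and 0.488). SUCLA2 had −0.28 (SE 0.18) for H3K23su score and −0.17 (SE 0.13) for H3K27ac score (limma adjusted p = 0.561 and 0.496), on a chromosome whose median gene was at −0.16 and −0.21.

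**Figure D3:**
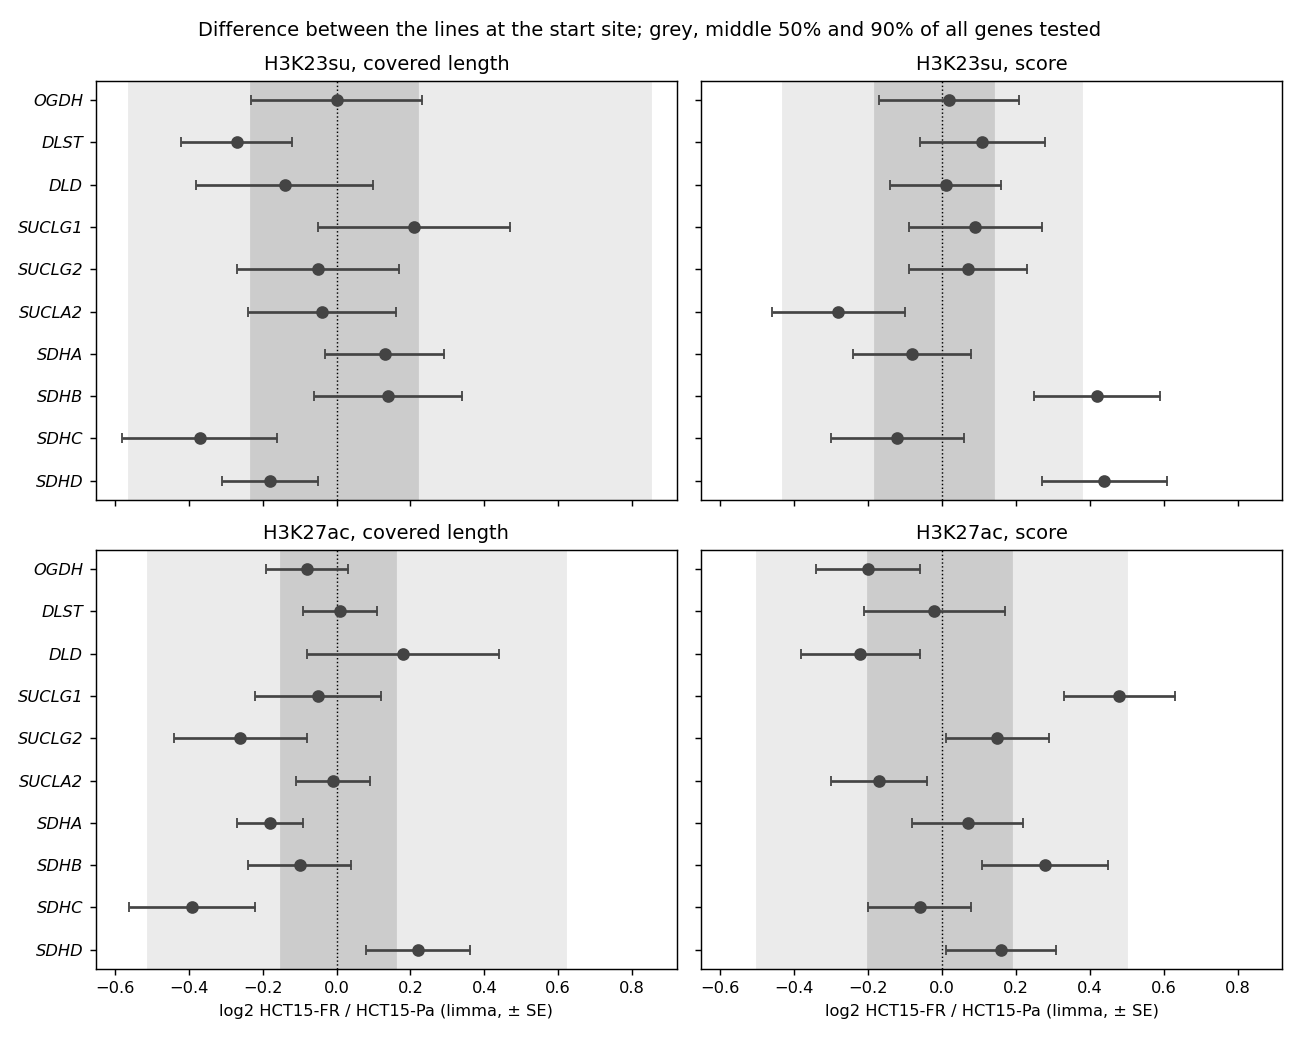
Difference between the lines at the TSS of each member, as the centred log2 ratio of HCT15-FR to HCT15-Pa from limma (dots, with bars of 1 SE), for length covered (left) and score (right) and for H3K23su (top) and H3K27ac (bottom). Dark and light grey hold the middle 50% and 90% of all genes tested, and only SDHB and SDHD for H3K23su score lie outside the light band.

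The marks could be set side by side as percentiles, each peak within its own list. OGDH stood higher in H3K27ac, from 95.8 to 98.5 over 4 libraries, than in H3K23su, from 74.5 to 88.4. SDHC did too, from 96.8 to 98.4 against 87.2 to 96.0. In the other direction, SUCLG2 (98.6 to 99.6 in H3K23su against 95.6 to 97.4), SDHA (98.2 to 99.0 against 92.5 to 94.9) and SDHD (95 to 99.7 against 91.9 to 94.2) stood higher in H3K23su. The percentiles of DLST, DLD, SUCLG1, SUCLA2 and SDHB overlapped. Over 10847 genes with peaks in all 8 libraries, 19.7% stood higher in H3K27ac and 11.5% in H3K23su without overlap. The exact permutation p of the 5 members without overlap was 0.0286, the smallest that 4 libraries against 4 can give, and 0.0917 after Benjamini-Hochberg adjustment over the 10847 genes. The test exchanged all 8 libraries freely, without regard to the line. It treats the libraries as independent, while replicates of a line may be technical. H3K27ac peaks were called with the broad option and H3K23su peaks without it, so mark and calling mode cannot be told apart here.

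Around the members, overlapping or adjoining peaks of any of the 4 libraries of a mark were joined into 1 region. A region was FR-only where the peaks came from both libraries of HCT15-FR and from none of HCT15-Pa, and Pa-only in the opposite case. There were 191 H3K23su regions, of which 44 were in all 4 libraries and 101 (52.9%) in a single library. There were 177 H3K27ac regions, of which 45 were in all 4 and 88 (49.7%) in 1. FR-only regions numbered 10 for H3K23su (5.24%, where the windows of all protein-coding genes had 7.75%) and 14 for H3K27ac (7.91% against 8.94%). Pa-only regions numbered 10 for each mark (5.24% against 4.66%, and 5.65% against 4.1%). None lay at a TSS. With 1 library of a line left out, a single library of that line is enough for a region to count for it, and the numbers were 32 and 41 FR-only and 34 and 38 Pa-only regions for H3K23su (without HCT15-FR replicate 2 and 1, and HCT15-Pa replicate 2 and 1) and 39 and 34 FR-only and 34 and 31 Pa-only regions for H3K27ac in the same order.

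**Figure D4:**
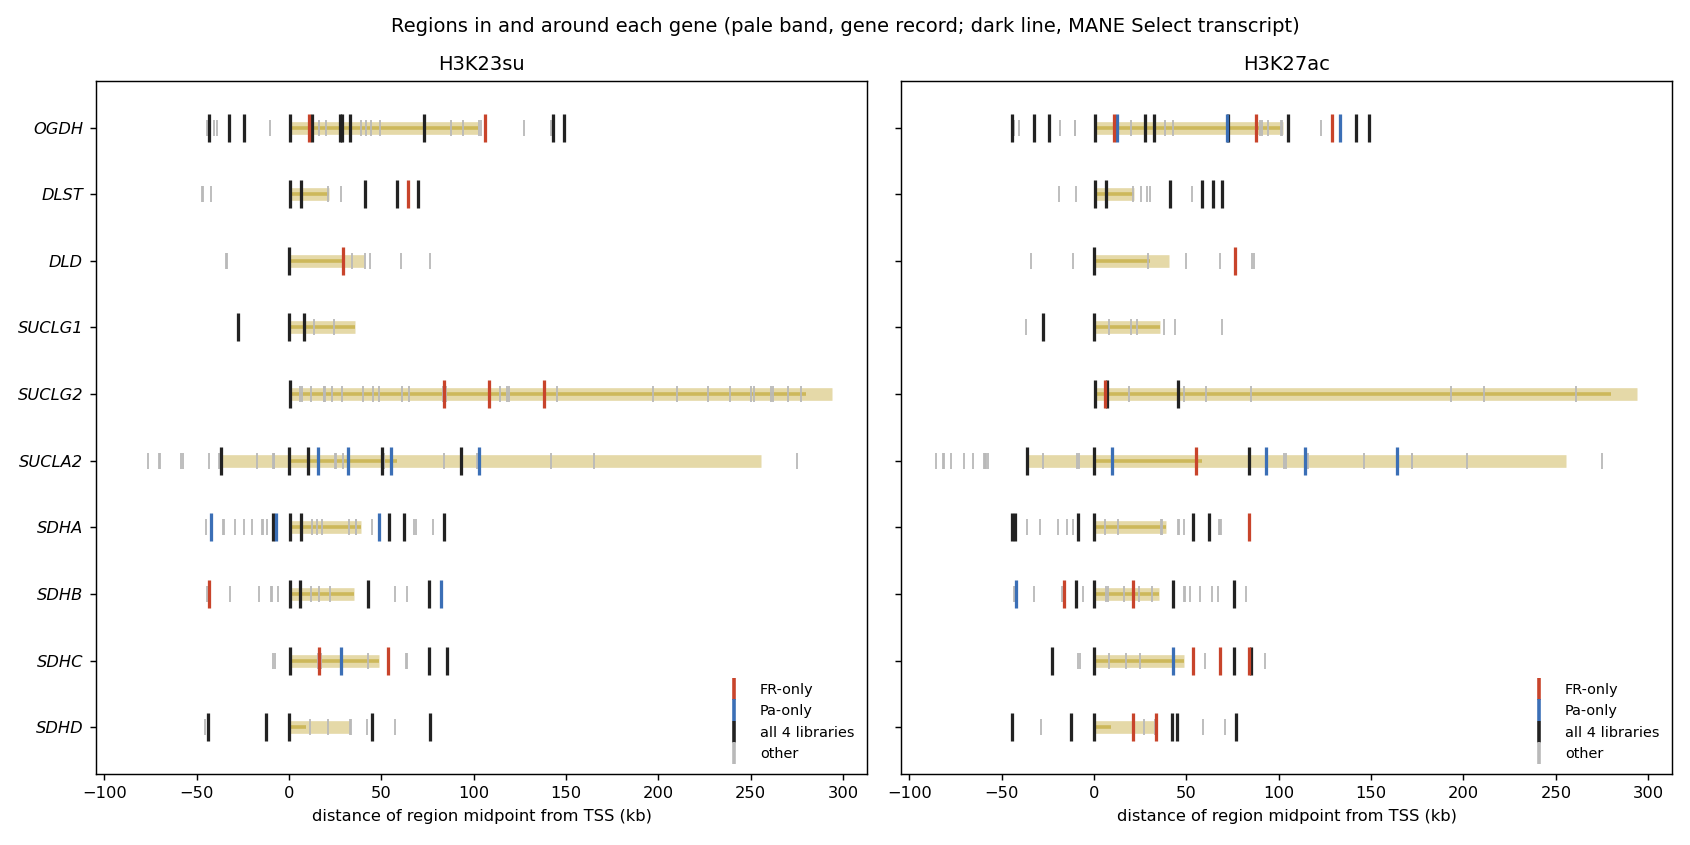
Merged regions in and within 50 kb of each member, by distance of the midpoint from the TSS in kb along the direction of transcription, for H3K23su (left) and H3K27ac (right); red FR-only, blue Pa-only, black in all 4 libraries, short grey other. Regions specific to a line lie away from the TSS, 1 site is not drawn, and SUCLA2 carries 4 Pa-only regions in each mark, some of them beyond the dark line of its main transcript.

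Among the sites specific to the same line in both marks, those near OGDH and SDHC are described here. They are both FR-only, which is not the class of all such sites. Their sequences follow on the plus strand of hg19, as 200 central bases for OGDH and 174 for SDHC, where untranslated exon bases were left out. The OGDH site is FR-only at chr7:44656847-44657483 (central bases chr7:44657065-44657264), in an intron 10.9 kb downstream of the start. The SDHC site is FR-only at chr1:161337565-161337917 (bases chr1:161337667-161337840), 53.6 kb downstream of the start of SDHC and beyond its end, over the start of the noncoding ENSG00000288670 and an exon of CFAP126.
OGDH site: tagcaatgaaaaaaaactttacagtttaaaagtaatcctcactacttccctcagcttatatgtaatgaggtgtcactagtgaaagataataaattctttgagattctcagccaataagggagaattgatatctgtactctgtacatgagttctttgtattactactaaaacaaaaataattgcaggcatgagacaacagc
SDHC site: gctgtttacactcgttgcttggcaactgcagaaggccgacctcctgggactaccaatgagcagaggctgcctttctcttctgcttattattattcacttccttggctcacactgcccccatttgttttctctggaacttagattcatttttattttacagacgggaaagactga
Neither stretch holds any of the 5 motifs, and the whole OGDH overlap of 637 bp holds 1 match to AP-1. The AP-1 letters were in 10.5% of the central 200 bases of 65018 H3K23su regions seen in 2 or more libraries. Those windows are shorter than the overlap, so this share is not that of stretches of its length. The G and C content was 32.5% at OGDH and 45.4% at SDHC.

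At the OGDH site, the HCT15-FR scores were 3.83 and 4.09 for H3K23su, at percentiles 24.1 and 33.6 of their lists, and 8.57 and 6.28 for H3K27ac, at percentiles 82.3 and 69.3. The H3K23su peaks there were thus weak and the H3K27ac peaks were not. At the SDHC site the HCT15-FR scores were 4.60 and 5.13 for H3K23su (51.2 and 63.4) and 6.43 and 4.97 for H3K27ac (70.3 and 54.1). At the SDHC site all 4 peaks therefore stood in the upper part of their lists. No single site was tested, and with 2 libraries against 2 an exact permutation test could not have gone below p = 0.33.

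The further regions described here were specific to a line in one mark, or differed in class between the marks. At OGDH, a Pa-only H3K27ac region lay 12.3 kb downstream of the start, and overlapped H3K23su peaks of all 4 libraries. Further H3K27ac regions in the OGDH intervals were Pa-only at 71.7 and 133 kb and FR-only at 87.6 and 129 kb, and an FR-only H3K23su region lay at 106 kb, all nearest to the start of ZMIZ2. Near DLST, the 1 region specific to a line was an FR-only H3K23su region 64.4 kb downstream, nearest to PGF, where H3K27ac was in all 4 libraries. DLD had an FR-only H3K23su region at 29.3 kb and an FR-only H3K27ac region at 76.2 kb, both nearest to the noncoding ENSG00000273055. SUCLG1 had none in either mark.

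Near SDHA, the H3K23su regions that were specific to a line were all Pa-only. They lay 42.5 kb upstream (nearest LRRC14B), 7.16 kb upstream (nearest ENSG00000260774) and 48.5 kb downstream (nearest PDCD6-DT). The last had scores of 7.07 and 6.74 in HCT15-Pa, at percentiles 93.0 and 90.9, the highest among the H3K23su regions near the members that were specific to a line. The 1 H3K27ac region near SDHA that was specific to a line was FR-only, 83.9 kb downstream (nearest PPP4R2P1). Near SDHB, H3K23su was FR-only 43.5 kb upstream (nearest PADI2) and Pa-only 82.2 kb downstream (nearest ENSG00000286898), and H3K27ac was FR-only at 21.3 kb downstream (nearest ATP13A2) and 16.1 kb upstream (nearest SDHB) and Pa-only 42.3 kb upstream (nearest PADI2). SDHC had FR-only H3K23su at 16.2 kb (nearest SDHC) and Pa-only H3K23su at 28.4 kb and H3K27ac at 42.8 kb (nearest ENSG00000289106), with FR-only H3K27ac at 68.3 kb (nearest RRM2P2) and 84.0 kb (nearest ENSG00000283696). SDHD had no such H3K23su region and FR-only H3K27ac at 20.9 and 33.7 kb, nearest to ENSG00000255292.

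SUCLA2 held 4 of the 10 Pa-only regions in each mark. For H3K23su they lay 15.8 kb (nearest SUCLA2), 31.9 and 55.4 kb (nearest ENSG00000287456) and 103 kb (nearest LINC00562) downstream, and for H3K27ac 9.92 kb (nearest SUCLA2), 93.1 and 114 kb (nearest LINC00562) and 164 kb (nearest ENSG00000228573). The region at 55.4 kb, over an exon of SUCLA2 at chr13:48519826-48520174, was Pa-only for H3K23su, with scores of 4.24 and 4.92, and FR-only for H3K27ac, with scores of 3.94 and 3.28. It was the 1 site near the members with opposite classes in the marks. SUCLA2 lies on chromosome 13, where Pa-only regions made up 9.14% of H3K23su and 8.12% of H3K27ac regions, so the chromosome as a whole stood apart in the same direction, and its part in the SUCLA2 values was not tested. Without SUCLA2 the members had 6 Pa-only regions in each mark (3.73% and 4.05%).

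Bases in peaks within the SUCLA2 gene record, outside the TSS window, were 5429 and 4114 in HCT15-Pa against 2954 and 3378 in HCT15-FR for H3K23su, and 4458 and 5323 against 1564 and 1526 for H3K27ac. Both HCT15-FR libraries lay below both HCT15-Pa libraries in each mark. The mean for H3K27ac was 4890 ± 612 bp (SD, n = 2) in HCT15-Pa and 1545 ± 26.9 bp (SD, n = 2) in HCT15-FR, a ratio of 0.316 (exact permutation p = 0.33, the smallest possible). The record in the annotation is 292 kb long, while the MANE Select transcript, the reference isoform, spans 58.6 kb. Inside the transcript, H3K23su covered 2536 and 1858 bp against 1267 and 831 bp, without overlap. H3K27ac inside it covered 220 and 325 bp against 230 and 146 bp, which overlapped, so the H3K27ac difference lay outside that transcript. On chromosome 13, 39.7% of 234 genes for H3K23su and 38.3% of 243 genes for H3K27ac had fewer body bases in both HCT15-FR libraries.

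Across the members, body bases were higher in both HCT15-FR libraries for 3 members in H3K23su (DLST, DLD and SUCLG2) and 4 in H3K27ac (DLST, SUCLG2, SDHB and SDHD), beside 33.6% of 12758 and 37.8% of 13234 genes with body peaks. They were lower in both for SUCLG1 and SUCLA2 in H3K23su (14.4% of genes) and for SUCLA2 and SDHA in H3K27ac (12.5%). At SDHA, H3K27ac covered 487 and 531 bp of the body in HCT15-Pa and 146 and 0 bp in HCT15-FR. At SUCLG1, H3K23su covered 563 and 1239 bp against 381 and 228 bp. At SDHD, H3K27ac covered 0 and 0 bp against 584 and 146 bp. The SDHD record spans 33.2 kb and its MANE Select transcript 8.92 kb. These H3K27ac peaks lay 20.9 to 32.9 kb downstream of the start, outside that transcript.

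**Figure D5:**
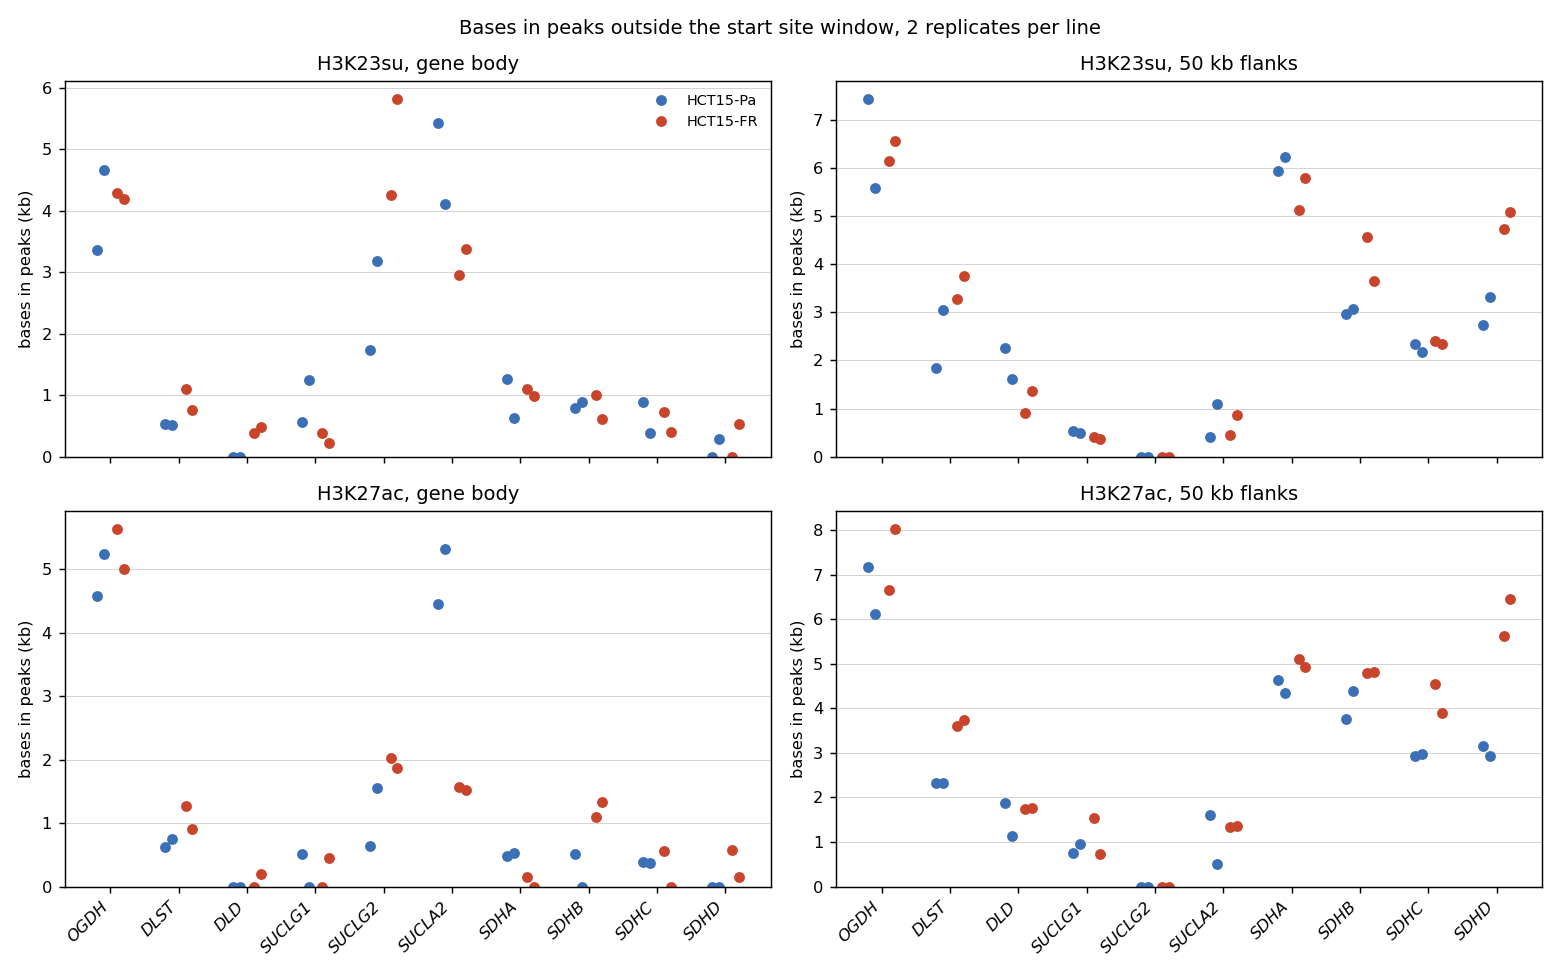
Bases in peaks (kb) in the gene body (left) and in the 50 kb flanks (right) of each member, outside the TSS window, with 1 dot per library (blue HCT15-Pa, red HCT15-FR) for H3K23su (top) and H3K27ac (bottom); vertical scales differ between panels. The HCT15-FR dots lie below the HCT15-Pa dots in the body of SUCLA2 and above them in the body of SUCLG2 and the flanks of SDHD in both marks, and SUCLG2 has no peak in its flanks.

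SUCLG2, a gene record of 294 kb, differed from the other members in having no peak in its flanks. Its body held 33 merged H3K23su regions, of which 23 were in a single library and 0 in all 4, and 10 merged H3K27ac regions, of which 2 were in all 4. The bodies of DLD, SDHC and SDHD also had no H3K23su region in all 4 libraries. H3K23su body peaks numbered 7 and 11 in HCT15-Pa and 12 and 18 in HCT15-FR, and covered 1727 and 3175 bp against 4257 and 5820 bp (ratio 2.06, exact permutation p = 0.33). H3K27ac covered 643 and 1549 bp against 2033 and 1862 bp. The 3 FR-only H3K23su regions of the body, 84.1, 108 and 138 kb downstream and nearest to the pseudogene NDUFB4P1, scored between 3.40 and 3.94, at percentile 27.7 or lower of their lists, and had no H3K27ac peak in any library. The 1 FR-only H3K27ac region lay 5.72 kb downstream of the start (nearest SUCLG2). In the 50 kb on either side of the gene, no library of either mark had a peak.

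The flanks of SDHD had the highest ratio of HCT15-FR to HCT15-Pa among the members in each mark. H3K27ac covered 3152 and 2922 bp in HCT15-Pa and 5616 and 6451 bp in HCT15-FR (ratio 1.99), and H3K23su 2744 and 3323 bp against 4729 and 5093 bp (ratio 1.62, exact permutation p = 0.33 for each). Both HCT15-FR libraries were above both HCT15-Pa libraries in each mark there, and also in the flanks of DLST, SDHB and SDHC. Over the members, the flanks had more bases in both HCT15-FR libraries for 4 in H3K23su and 5 in H3K27ac, beside 46.3% of 17977 and 44.7% of 18719 genes with flank peaks. They had fewer for 3 in H3K23su (DLD, SUCLG1 and SDHA) and 0 in H3K27ac, beside 13.7% and 14% of genes. The lowest ratio in the flanks was that of DLD for H3K23su, with 2254 and 1618 bp in HCT15-Pa against 901 and 1362 bp in HCT15-FR (ratio 0.584, exact permutation p = 0.33), while H3K27ac there overlapped between the lines.

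The rest of the pathway was read from lists of 35 genes: other TCA cycle enzymes, other enzymes of succinyl-CoA or succinate, succinate dehydrogenase assembly factors, succinate transport and sensing, and lysine succinylation enzymes. Of these, 30 had an H3K23su and 31 an H3K27ac TSS peak in all 4 libraries. No library of either mark had a TSS peak at OGDHL, the relative of OGDH, at SLC13A3, a dicarboxylate carrier of the cell membrane, or at SUCNR1, the succinate receptor. SLC13A5, a citrate carrier, had a peak of each mark in 1 HCT15-Pa library. SIRT7, a deacylase of the nucleus, had H3K23su in 3 libraries and H3K27ac in 4.

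By limma on the score, 0 of the 30 genes tested for H3K23su and 0 of the 31 tested for H3K27ac were called in either direction, with median differences of 0.02 and −0.06. The smallest adjusted p values were those of the assembly factors SDHAF4 for H3K23su and SDHAF2 for H3K27ac. SDHAF4 scored 6.72 and 7.76 in HCT15-Pa against 12 and 12.2 in HCT15-FR (log2 0.50, SE 0.16, limma adjusted p = 0.186). SDHAF2 scored 26.0 and 30.9 against 44.3 and 42.7 (log2 0.41, SE 0.12, limma adjusted p = 0.0751). The next smallest belonged to genes that were lower in HCT15-FR. They were SUGCT for H3K23su (log2 −0.48, SE 0.16, limma adjusted p = 0.196) and ALAS1 for H3K27ac (log2 −0.56, SE 0.18, limma adjusted p = 0.0924). Among the assembly factors, SDHAF1 was also lower for H3K23su (log2 −0.46, SE 0.18, limma adjusted p = 0.284). Of the 21 pseudogene copies of the members, 15 had no H3K23su TSS peak in any library and 13 no H3K27ac peak. SDHAP3 had H3K23su in the HCT15-Pa libraries alone, with scores of 5.68 and 3.63. Its H3K27ac was not confined to that line, with scores of 4.43 and 5.64 in HCT15-Pa and 7.09 in HCT15-FR replicate 1.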

How the data were processed

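The 8 CUT&Tag peak lists are of human HCT15 cells, 2 per mark and line. The authors mapped the reads on hg19 (Bowtie2), filtered them with SAMtools to unique, proper pairs and removed duplicates. MACS2 was run on every library alone, in broad mode for H3K27ac. The submitters' processing notes also name HOMER 4.10. The deposited value of a peak is the −log10 of its P value. Spike-in DNA and read counts do not enter the lists, so precision is set by the 2 libraries per group and depth was not analysed here.

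Genes were taken from GENCODE release 44 mapped to GRCh37, with the TSS of the MANE Select transcript where there was one. A peak was counted with 1 bp of overlap, and put in the TSS window (2 kb), the gene body or the flank (50 kb), in that order. limma 3.58.1 (R 4.3.3), with a mean trend, was run on log2 length covered and log2 score over protein-coding genes with a TSS peak in all 4 libraries of a mark, centred on library medians, with Benjamini-Hochberg adjustment over all genes and a threshold of 0.05. Other comparisons used two-sided exact permutation tests. Sequences were read with pysam 0.24.0, and tables made with pandas 2.3.3 and numpy 2.4.6. Region classes and limma were tested on simulated data. The limma simulation planted changes larger than those of any member and gave all genes the same spread. It therefore checked the procedure and does not show how well the fits detect differences of the size seen here.

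Named are the 10 members, genes with a start within 2 kb of theirs, and the gene nearest to each region specific to a line. Also named are listed pathway genes without a peak or separating the lines. Further listed genes (SLC13A5, SIRT7, SDHAF4, SDHAF2, SDHAF1, SUGCT, ALAS1, the SDHA pseudogenes and markers) were chosen after their values were seen. The members, lists and tests were chosen with earlier results of these data known. Alternatives were lists of equal length, the upper 50% of a list by score, other windows, starts, merging, overlap, centring and gene filters, the replicate block, and leaving out each library. The MANE Select span and leaving out SUCLA2 were added after the data were seen. Of the sites specific to the same line in both marks, 1 that is Pa-only is not reported here and stays in the counts.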

Additional observations from a re-analysis of the deposited data

How the results depend on the processing

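All 10 members kept a TSS peak in every library of both marks under all 8 alternatives, including the stronger 50% of each list and a 1 kb window. This followed from the peaks as reported and is not a further result. All of them crossed the start site, and the lowest percentile was 74.5 for H3K23su and 81.3 for H3K27ac. Leaving out a library or allowing more starts cannot lower the count. In the stronger 50% of each list, FR-only regions numbered 5 for H3K23su and 7 for H3K27ac, and Pa-only regions 3 and 5. With a 10 kb flank, FR-only H3K27ac regions numbered 8. Without SUCLA2, Pa-only regions numbered 6 in each mark. Leaving out each library gave 14 to 41 FR-only and 12 to 38 Pa-only regions for H3K23su, and 18 to 39 and 10 to 34 for H3K27ac, the high values where a line is left with 1 library. The count of members whose score differed by limma, 0 as reported, was 2 for H3K23su (SDHB and SDHD, log2 0.66 and 0.69) and 1 for H3K27ac (SUCLG1, log2 0.68) without centring, and for H3K27ac 1 with the replicate block (SUCLG1). Leaving out each library gave 0 to 1 members for H3K27ac score (DLD without HCT15-FR replicate 2, where the 1 HCT15-FR library left is assumed to vary like the HCT15-Pa pair) and 0 for the others. The cause was not tested. For length, 0 members were called under all 9 alternatives in either mark.

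Replicate numbers did not pair the libraries: deviations of same-numbered libraries correlated at 0.00974 and 0.00458 for H3K23su (length and score) and −0.00783 and −0.0046 for H3K27ac across genes. With the replicate block, limma called 0 members for H3K23su and, over all genes, 19 for H3K23su score and 999 for H3K27ac score, in place of 50 and 450. Without centring these were 751 and 1699, and with genes that have a peak in any library 652 and 38. The lists hold only peaks past a threshold, and 2 libraries per group limit every comparison of the lines.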
